A study of Mus musculus with 18 samples.

Results

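The CpGs described here were partly methylated to about the same degree in gonadal adipose tissue, hypothalamus and liver, and lay close together. They are called mid-level CpGs below. A CpG was kept when it was listed on an autosome in all 3 tissue tables with 30 or more and under 1000 reads in each of 6 pools, had a methylation level of 40% to 60% in every tissue, and had at least 2 further such CpGs within 200 bp. Of 1503789 autosomal CpGs listed in the 3 tables, 1160477 met the depth limits, 6523 of these had the level in every tissue, and 782 also had the neighbours. These 782 are 0.0674% of the CpGs within the depth limits. The levels chose the CpGs, so levels are given as a description with no test, while the genes at which the CpGs lie and the difference between treatments were not used in the choice. The rule took autosomes only and asked for neighbours, so it favours places dense in CpGs: the median number of listed CpGs within 100 bp was 7 for the chosen CpGs and 5 for all within the depth limits.

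The study asked how exposure to bisphenol A (BPA), a building block of plastics that can activate oestrogen receptors weakly, during gestation relates to DNA methylation in the offspring. Inbred C57BL/6 dams were gavaged daily, from day 1 to day 20 after conception, with corn oil that held BPA at 5 mg per kg per day or with plain corn oil, and male offspring of 3 control and 4 BPA litters were examined at 3 weeks of age. Each tissue has 3 control and 3 BPA samples, 18 in all, measured by reduced representation bisulfite sequencing, in which MspI cuts DNA at CCGG and unmethylated cytosines are converted. The deposited tables join the 3 samples of a group into 1 pool, so no value has an error between animals, and the litter of a sample is not used here. The tables number the pools 0 and 1. Number 0 was read as the control pool only because the file label names control before BPA, and with the opposite numbering every direction between treatments would turn.

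The tables list 1946477 CpGs in adipose, 1687641 in hypothalamus and 1705876 in liver. The mid-level CpGs had 30 to 949 reads in a pool, with control and BPA medians of 226 and 258 reads in adipose and 132 and 139 in hypothalamus. In liver the medians were 201 and 184.5. As a check of the tissue labels, the median level in control and BPA pools together at hepatocyte marker genes was 43.6% in liver against 71.6% in adipose and 71.7% in hypothalamus, and 10 of 12 such genes were lowest in liver. Adipocyte markers had medians of 60.7% in adipose, 79.4% in hypothalamus and 67.2% in liver, with 5 of 10 genes lowest in adipose. Neuron markers had 42.6%, 35.2% and 38.2%, with 6 of 10 lowest in hypothalamus. Of the leukocyte markers 5 of 9 were lowest in adipose, though their median was lowest in liver (77.1%, 82.2% and 70.8%). Of the endothelial markers 4 of 8 were lowest in adipose, with medians of 57.9%, 73.5% and 67.7%. None of the 782 CpGs lay in or within 5 kb of a gene of these 5 marker lists. In the order above, the lists had only 183, 337, 1036, 224 and 426 CpGs within the depth limits. With a share of 0.0674% over all such CpGs, finding none there says little.

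Most CpGs of a mammalian genome are either methylated on nearly all DNA molecules or on nearly none. The best known source of stable intermediate methylation is genomic imprinting, in which a region is methylated in egg or sperm, and the mark is kept on that parental copy in the body's cells while the other copy stays free of it. Such germline imprints are methylated on the maternal copy at most domains and on the paternal copy at a few, and their upkeep depends on the maintenance methyltransferase DNMT1 and on ZFP57, a zinc finger protein that binds methylated TGCCGC. Intermediate levels also arise where cell types differ, where molecules are methylated at random, or where reads of several gene copies are read as 1 locus.

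Only 8 promoter windows, taken from 250 bases before to 50 bases after a gene's start in RefSeq (GRCm38.p6), held any of the CpGs, 20 in all. The upstream 250 bases of 4 of them are printed because they show what kind of sequence carried the mid-level state: a maternally methylated imprinted promoter (Mcts2), a paternally methylated one (Meg3), a promoter of a germ cell gene (Ddx4), and the Mcf2l promoter, which is in none of the gene lists used. Each is on the gene's own strand from 5′ to 3′, and each CG in capitals is a mid-level CpG.
Mcts2, chr2:152686898-152687147, plus strand: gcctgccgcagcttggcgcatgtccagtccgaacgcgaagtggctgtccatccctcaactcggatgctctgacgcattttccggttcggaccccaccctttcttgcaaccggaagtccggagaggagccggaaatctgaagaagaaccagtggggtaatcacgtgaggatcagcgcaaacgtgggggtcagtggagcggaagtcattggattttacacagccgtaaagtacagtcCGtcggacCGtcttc
Meg3, chr12:109540746-109540995, plus strand: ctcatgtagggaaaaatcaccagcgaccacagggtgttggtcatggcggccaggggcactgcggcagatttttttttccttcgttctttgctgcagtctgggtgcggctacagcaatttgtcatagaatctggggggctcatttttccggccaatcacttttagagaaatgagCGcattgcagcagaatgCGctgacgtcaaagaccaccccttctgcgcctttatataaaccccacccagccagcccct
Ddx4, chr13:112652311-112652560, minus strand: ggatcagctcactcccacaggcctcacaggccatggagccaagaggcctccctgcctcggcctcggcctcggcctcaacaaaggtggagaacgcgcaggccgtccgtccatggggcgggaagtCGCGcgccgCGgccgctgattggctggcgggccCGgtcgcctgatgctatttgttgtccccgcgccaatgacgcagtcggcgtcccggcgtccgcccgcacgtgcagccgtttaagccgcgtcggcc
Mcf2l, chr8:12926026-12926275, plus strand: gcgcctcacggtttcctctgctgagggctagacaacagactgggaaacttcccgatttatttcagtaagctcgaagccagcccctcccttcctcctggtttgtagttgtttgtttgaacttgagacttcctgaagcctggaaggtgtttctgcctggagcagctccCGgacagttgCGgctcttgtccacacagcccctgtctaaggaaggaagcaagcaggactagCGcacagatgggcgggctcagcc
The capitals in Mcts2 mark 2 of its 3 mid-level CpGs, since the other lies at the start site, and those in Meg3 mark 2 of 4. In Ddx4 and Mcf2l all 4 and all 3 are shown. Of the CpGs within the depth limits, the mid-level ones were 3 of 18 in the Mcts2 window and 3 of 11 in that of Meg3. They were 4 of 16 in the Ddx4 window and 3 of 4 in that of Mcf2l. The motif TGCCGC, searched on both strands, occurred in the windows of Mcts2 and Meg3 and in none of the other 6, against 11.6% of all 32851 promoter windows. The core of the motif of the insulator protein CTCF occurred in 0 of the 8 and in 0.0365% of all windows. CCGG, the MspI site, occurred in all 8 and in 52.8% of all windows. Because the assay reads DNA cut at CCGG, windows with deeply read CpGs were likely to hold it. All windows include those without reads, so the shares of the 3 motifs are not a like comparison.

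At Mcts2, a retrogene in the gene body of H13 that is active from the paternal copy, the 3 CpGs read 53.1%, 51.7% and 53.6% in adipose. The same CpGs read 40.9%, 40.9% and 41.2% in hypothalamus and 41.9%, 41.1% and 43.6% in liver. Adipose was thus the highest tissue at each of them. At Ddx4, which encodes an RNA helicase of germ cells, the 4 CpGs lay 127 to 94 bases before the start. They read 44.6% to 58.5% over the 3 tissues, with means of 53.5% in adipose, 52.9% in hypothalamus and 51.9% in liver. Other CpGs of the Ddx4 window read higher, up to 91.6% in adipose, 91.1% in hypothalamus and 92.2% in liver. Ddx4 was the only one of 20 germline genes with such CpGs, which were 4 of 653 within the depth limits at these genes (0.613%). The 15 genes of the methylation machinery and imprint upkeep held 0 of 1115. Over all CpGs within the depth limits the share was 0.0674%, so the absence at those 15 genes says little. At Mcf2l the means were 44.1%, 55.4% and 48.6% in the same order.

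Over all 782 CpGs the median level was 51.2% in adipose, 50.6% in hypothalamus and 47.9% in liver. The levels spread over the whole permitted window: the lowest was 40% and the highest 60%, and the nearest levels outside it were 39.997% and 60.006%. A further 449 CpGs with the neighbours were kept out by a tissue between 35% and 40%, and 422 by a tissue between 60% and 65%. Within a CpG, the 3 tissues spanned a median of 8.05 percentage points. The highest tissue was adipose at 320 CpGs, hypothalamus at 277 and liver at 185. Single pools ranged from 25.9% to 70.2%, and all 6 pools lay within 40% to 60% at 333 CpGs (42.6%).

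The 782 CpGs formed 209 runs when those at most 200 bp apart were joined. A run held a median of 3 of the CpGs and at most 12. Exactly 3 were held by 118 runs and fewer by 12, some with 1 CpG only. Their median length was 118 bp and the longest was 618 bp. Inside the runs, 47.5% of the 1646 listed CpGs belonged to the set. CpGs of 1 run are often read by the same fragments and are not independent of each other. The median SD of levels among the CpGs of a run was 3.73 points in adipose, 3.85 in hypothalamus and 4.25 in liver.

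Imprinted genes held 74 of the 782 CpGs in their gene bodies or within 5 kb, which is 9.46%. The share was 0.309% among all CpGs within the depth limits and 0.383% among the 5741 CpGs that had the level but lacked 2 neighbours. Of 24 imprinted domains in the list, 12 held mid-level CpGs. These were 10 of the 20 marked there as methylated on the maternal copy and 2 of the 4 marked as paternal. Whether the CpGs lay in the part of a domain that is methylated in egg or sperm was not tested. The 74 CpGs formed 14 of the 209 runs, so they are not 74 independent sites.

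Gnas, which encodes the stimulatory G protein alpha subunit and overlaps several imprinted transcripts, held the most with 25 CpGs in 3 runs on chromosome 2. The run at chr2:174285424-174285593, where Gnas and the antisense Gnasas1 overlap, held 4 of 6 listed CpGs. Their means were 43.8% in adipose, 42.7% in hypothalamus and 44.8% in liver. The run at chr2:174298053-174298437 held 12 of 13 listed CpGs, with 52.3%, 48.2% and 50.1%. The run at chr2:174300202-174300470 held 9 of 11, with 51.2%, 42.8% and 43.6%. Zrsr1, a retrogene in the gene body of Commd1 that encodes a splicing factor-like protein, had all 10 listed CpGs of chr11:22973934-22974253 in the set. They averaged 47.6% in adipose, 46.8% in hypothalamus and 45.7% in liver.

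Snrpn, whose locus encodes an mRNA splicing protein and is the imprinting centre of the Prader-Willi region, had all 5 listed CpGs of chr7:60004900-60005093 in the set, at 43.1%, 42.6% and 42.4%. The SD among the 5 CpGs was 0.403 points in adipose, 1.18 in hypothalamus and 1.33 in liver. The means were close only with both pools joined. Control pools had 47.6%, 38.7% and 44.2%, and BPA pools 39.0%, 46.2% and 40.3%. Among CpGs at 25% to 75% in every tissue, the 47 of the Snrpn domain had medians of 42.4%, 36.9% and 35.4%. Cdh15, which encodes a cadherin of muscle, had 5 of the 13 listed CpGs of its run in the set. They averaged 56.8% in adipose, 53.5% in hypothalamus and 47.9% in liver. Peg10, derived from a retrotransposon, had 4 of 9 listed CpGs at 45.6%, 41.4% and 41.6%. Nnat, which encodes the neuronal proteolipid neuronatin and lies inside Blcap, had 4 of 5 at 48.2%, 42.0% and 44.5%. Inside Trappc9, the host gene of the imprinted noncoding RNA Peg13, all 4 listed CpGs of a run had 51.0%, 45% and 44.6%. Impact, which encodes an inhibitor of the kinase GCN2, had 4 of 12 at 43.7%, 41.8% and 41.8%. Nap1l5, a retrogene in Herc3, had 3 of 14 at 45.8%, 44.0% and 54.0%.

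Both domains marked as paternally methylated that had mid-level CpGs were read at single runs. Meg3, a maternally expressed long noncoding RNA of the Dlk1 domain, had 4 of the 9 listed CpGs of its run in the set. Their means were 43.0% in adipose, 46.4% in hypothalamus and 43.3% in liver. Zdbf2, a paternally expressed zinc finger gene, had all 3 listed CpGs of its run, with 54.1%, 52.3% and 50%. The means at imprinted CpGs were 49.0% in adipose (SD over CpGs 5.15, n = 74), 45.4% in hypothalamus (SD 4.25) and 45.7% in liver (SD 4.78). At the 708 CpGs elsewhere they were 50.9%, 50.9% and 48.9%. In hypothalamus 83.8% of imprinted CpGs against 42.5% of the others lay under 50%. These shares were 81.1% against 58.3% in liver and 55.4% against 41.2% in adipose. The limits of the rule bounded all these levels, and the 74 imprinted CpGs formed only 14 runs.

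**Figure D1:**
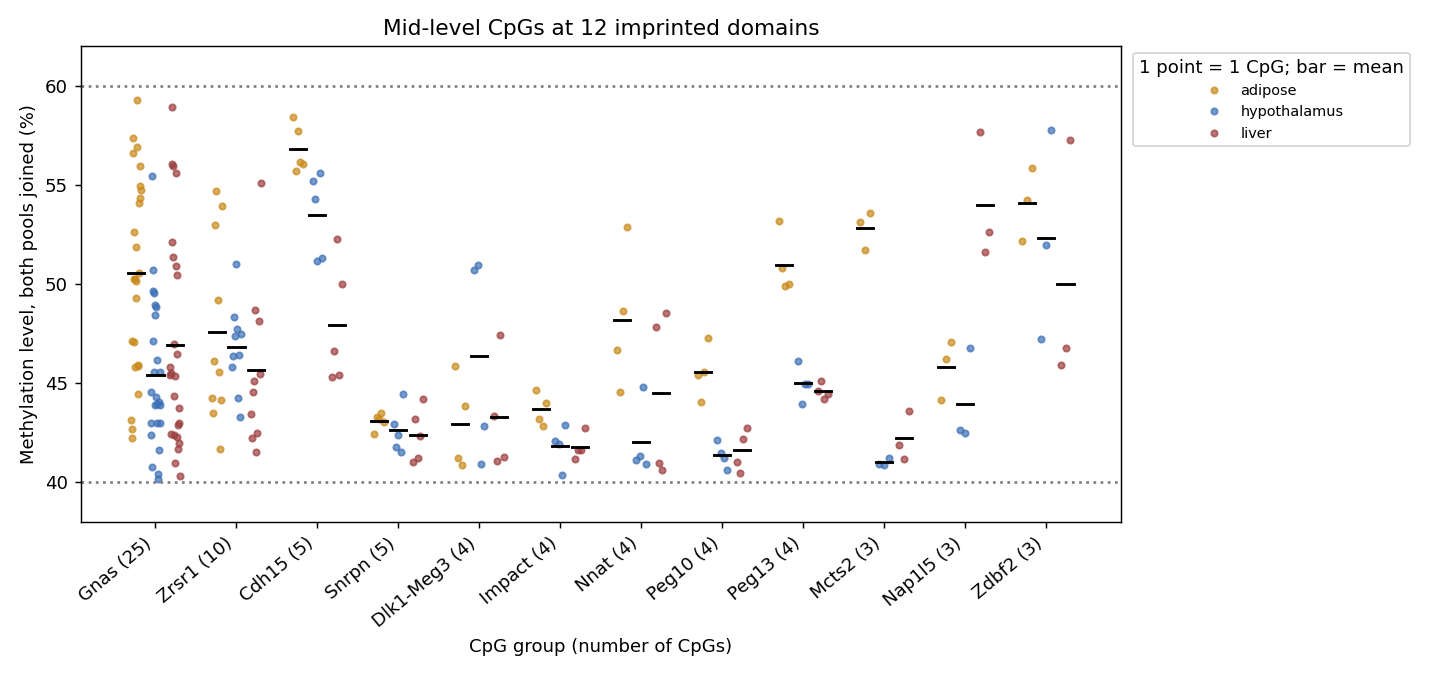
Methylation level in percent (both pools joined) of each mid-level CpG at the 12 imprinted domains, with the number of CpGs after each name. Each point is 1 CpG, bars are means over CpGs, colours are tissues and dotted lines are the limits of the rule at 40% and 60%. Adipose stands above hypothalamus and liver at Mcts2 and Peg13. At the 5 Snrpn CpGs the joined levels of the 3 tissues nearly coincide, though those of single pools do not.

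The other 12 imprinted domains, Mest, Peg3, Kcnq1, H19-Igf2, Inpp5f, Igf2r, Plagl1, Grb10, Slc38a4, Rasgrf1, Sfmbt2 and Zfp777, had no CpG in the set. A wider range of 25% to 75% in every tissue was then applied to all 24 domains, those with mid-level CpGs included. It took in 694 CpGs of the imprinted list, with a median of 46.1% in adipose, 37.7% in hypothalamus and 41.0% in liver. In hypothalamus 60.1% of them were under 40%, against 43.9% in liver and 17.7% in adipose. Hypothalamus was the lowest tissue at 58.4% of them, but at 21.7% of the 72918 other CpGs in that range, whose medians were 52.0%, 59.5% and 56.4%. Of 21 domains with at least 5 such CpGs, the median was lowest in hypothalamus in 15, in liver in 6 and in adipose in 0. Among the 9 of these domains without mid-level CpGs, the median was under 40% in hypothalamus in 6, in liver in 5 and in adipose in 0.

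At Igf2r, the growth factor receptor whose silencing RNA Airn starts in an imprinted region, 27 such CpGs had medians of 46.8% in adipose, 34.7% in hypothalamus and 39.0% in liver. At Plagl1, a zinc finger growth regulator, 29 had 48.5%, 36.5% and 37.4%. Kcnq1, with the silencing RNA Kcnq1ot1, had 42.4%, 37.1% and 38.6% at 38 CpGs. Not every such domain followed this order. Peg3, which encodes a zinc finger protein, was highest in hypothalamus (55.7%, 61.0% and 53.8%), Mest had 60.4%, 45.2% and 33.1%, and Inpp5f had 45.1%, 36.9% and 64.6%. H19-Igf2, methylated on the paternal copy, had 53.1%, 52.4% and 47.7% at 21 CpGs, and 2 of its CpGs met the level in all tissues but lacked the neighbours. Samples were bulk tissue, so a smaller share of methylated alleles in each cell and a different mix of cells cannot be told apart.

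Outside imprinted genes, 358 of 708 CpGs lay in protein-coding genes (50.6%), against 60.4% of all CpGs within the depth limits. Pseudogenes, copies of genes that have lost their function, held 99 of the 782 CpGs (12.7%), against 1.57% of CpGs within the depth limits and 2.02% of the mid-level CpGs without neighbours. The 99 lay in 24 runs. Promoter windows held 2.56% of the set, against 8.61% of CpGs within the depth limits and 1.25% of the CpGs with the level but without neighbours. Within 1 kb of a gene start lay 12.7% of the set, against 28.2% and 7.47%, and gene bodies held 72.9%, against 67.8% and 56.3%. Genes whose symbols mark them as zinc finger genes held 21 CpGs (2.69% against 1.10%). Protocadherin genes encode cell adhesion proteins of neurons that are chosen at random from clustered promoters. Of their 1806 CpGs within the depth limits, 18 were in the set (0.997%, against 0.0674% of all).

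**Figure D2:**
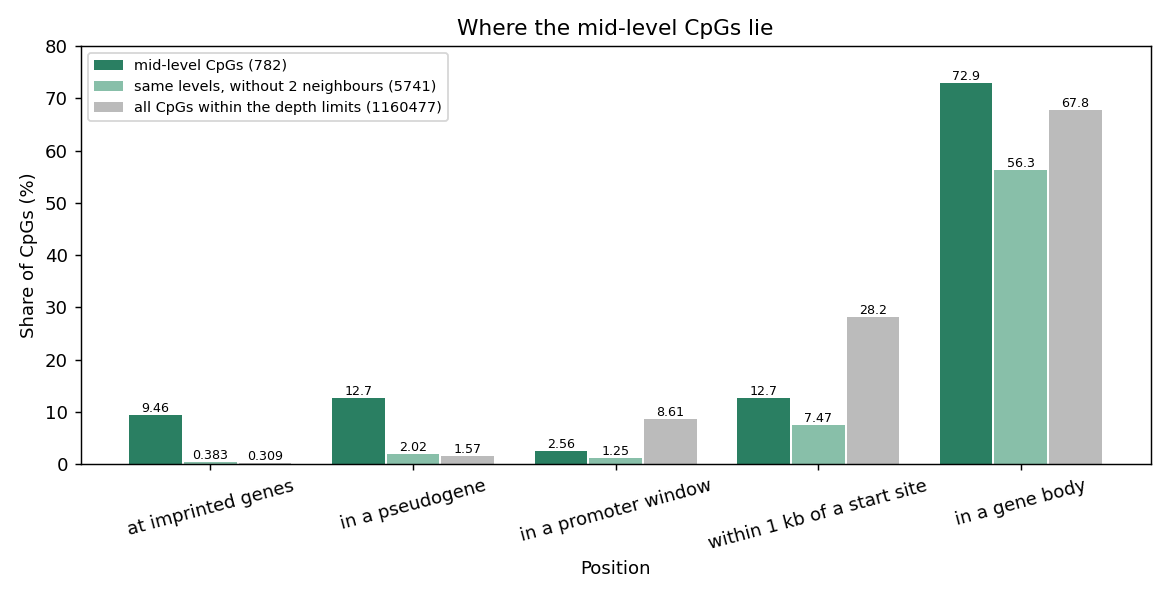
Share of CpGs in percent (vertical axis) at 5 kinds of position, for the 782 mid-level CpGs, the 5741 CpGs with the level but without 2 neighbours, and all 1160477 CpGs within the depth limits. The set stands highest at imprinted genes (9.46%) and in pseudogenes (12.7%), and below all CpGs within the depth limits in promoter windows (2.56% against 8.61%), where the CpGs without 2 neighbours have 1.25%.

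A few places held many of the CpGs. By chromosome the set made up 0.136% of CpGs within the depth limits on chromosome 4 and 0.132% on chromosome 18, against 0.0674% on all autosomes. On chromosome 4, 33 of the 843 CpGs between 145 and 147 Mb belonged to it (3.91%), in a region of zinc finger genes and vomeronasal receptor pseudogenes. Their median depth in adipose was 430 control and 485 BPA reads, above the 226 and 258 of the whole set. In the gene bodies of Rn18s-rs5, a copy of the ribosomal RNA gene on chromosome 17, and of the noncoding RNA gene AY036118, 13 of 49 CpGs within the depth limits belonged to it (26.5%), and all 13 lay in Rn18s-rs5. Whether reads of near-identical copies were placed on these loci was not tested, and their levels are uncertain for that reason.

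Around the runs the intermediate state reached farther at imprinted genes than elsewhere. Inside imprinted runs 100% of 117 CpGs lay between 25% and 75% in all 3 tissues, and outside them 93.5% did at up to 200 bp, 63.8% at 200 to 500 bp, 95.1% at 500 to 1000 bp, 71.1% at 1000 to 2000 bp and 26.7% at 2000 to 5000 bp. At the other 195 runs the same shares were 81.8% inside and 48.6%, 31.7%, 23.8%, 21.4% and 10.7% outside. The CpGs inside imprinted runs that were not in the set numbered 44, of which 29 were under 40% in a tissue, 12 were over 60%, 2 were both and 1 was outside the depth limits. Inside the other runs there were 820, and 18 of them were under 20% in all tissues and 34 over 80% in all. No CpG inside an imprinted run was under 20% or over 80% in all tissues. The levels inside the runs were fixed by the rule in part. The rule also bears on the nearest flank, because CpGs within 200 bp that met it were joined to the run. It set no level for CpGs farther out, though some of those may belong to another run.

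**Figure D3:**
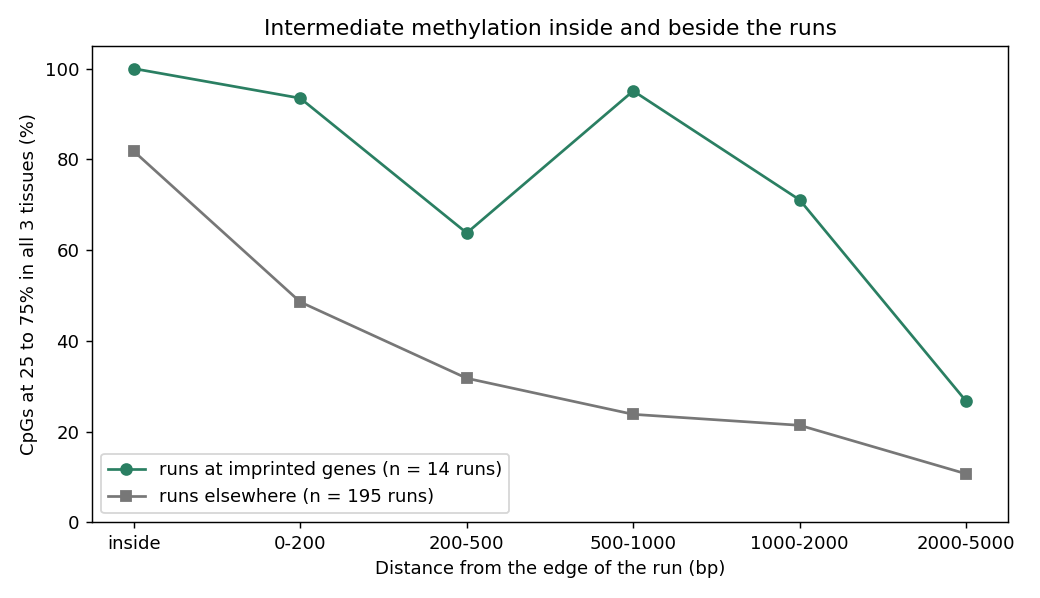
Share of CpGs at 25% to 75% in all 3 tissues (vertical axis, percent) inside runs of mid-level CpGs and by distance in bp from the edge of the run, for the 14 runs at imprinted genes and the 195 elsewhere. The imprinted runs keep 71.1% at 1000 to 2000 bp, where the other runs have 21.4%.

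The longest series outside imprinted genes were named by their number of CpGs. Npcd and Cbx6, which share a stretch of chromosome 15 and of which Cbx6 encodes a Polycomb protein, held 12 of 29 listed CpGs at chr15:79828725-79829143. They averaged 53.9% in adipose, 49.0% in hypothalamus and 45.9% in liver, with SDs of 6.04, 5.92 and 5.88 points over CpGs. On chromosome 4, 11 of the 38 listed CpGs of a run within 5 kb of the pseudogene Gm13238 were in the set (54.4%, 53.4% and 44.3%). Another 11 lay in the pseudogenes Vmn2r-ps16 and Gm13241 (53.6%, 55.5% and 45.1%), where 58 CpGs were listed in the same 618 bp. The lowest tissue was liver in each of these 3 runs.

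Camk2b, which encodes the beta subunit of a calcium-dependent kinase of synapses, had 8 of 17 listed CpGs at 50.7%, 48.6% and 47.4%. The noncoding RNA gene 1700048O20Rik had 7 of 13 at 51.6%, 51.2% and 49.2%. Pik3c3, the lipid kinase of autophagy, had 7 of 14 at 48.5%, 45.6% and 48.1%.

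At chr4:123117050-123117207, 7 of 17 listed CpGs were in the set, in Oxct2b, a ketone body enzyme of testis inside Bmp8b. They had 53.8%, 50.5% and 48.8%. A second run lay in the paralogous pair Oxct2a and Bmp8a, with 5 of 9 listed CpGs at 50.7%, 57.0% and 48.4%. That pair, and Boll and Meioc, 2 genes of male meiosis, were chosen after their values were seen. Boll had 5 of 20 listed CpGs at 53.1%, 50.9% and 52.7%, and Meioc had 5 of 15 at 51.5%, 51.2% and 45%. Reads of Oxct2a and Oxct2b, like those of Bmp8a and Bmp8b, may be hard to tell apart, which was not tested.

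The ribosomal protein pseudogene Rpl15-ps6 had all 7 listed CpGs of its run in the set, at 54.1%, 47.4% and 46.9%. Rn18s-rs5 had all 8 listed CpGs of its run with the most CpGs, at 49.2%, 46.0% and 45.8%. The remaining named runs held 6 CpGs each, of 9 (Gm6013) to 19 (Zfp316) listed. They lay in the pseudogene Gm6013, in the ubiquitin ligase gene Cul9, in the noncoding RNA gene LOC115486519, in the zinc finger gene Zfp316 and at chr3:36853300-36853477 with no gene within 5 kb. Their tissue means ran from 44.2% (Zfp316 in adipose) to 55.2% (the chromosome 3 run in hypothalamus). In all, 58 of the 209 runs lay in no gene body and 42 had no gene within 5 kb.

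**Figure D4:**
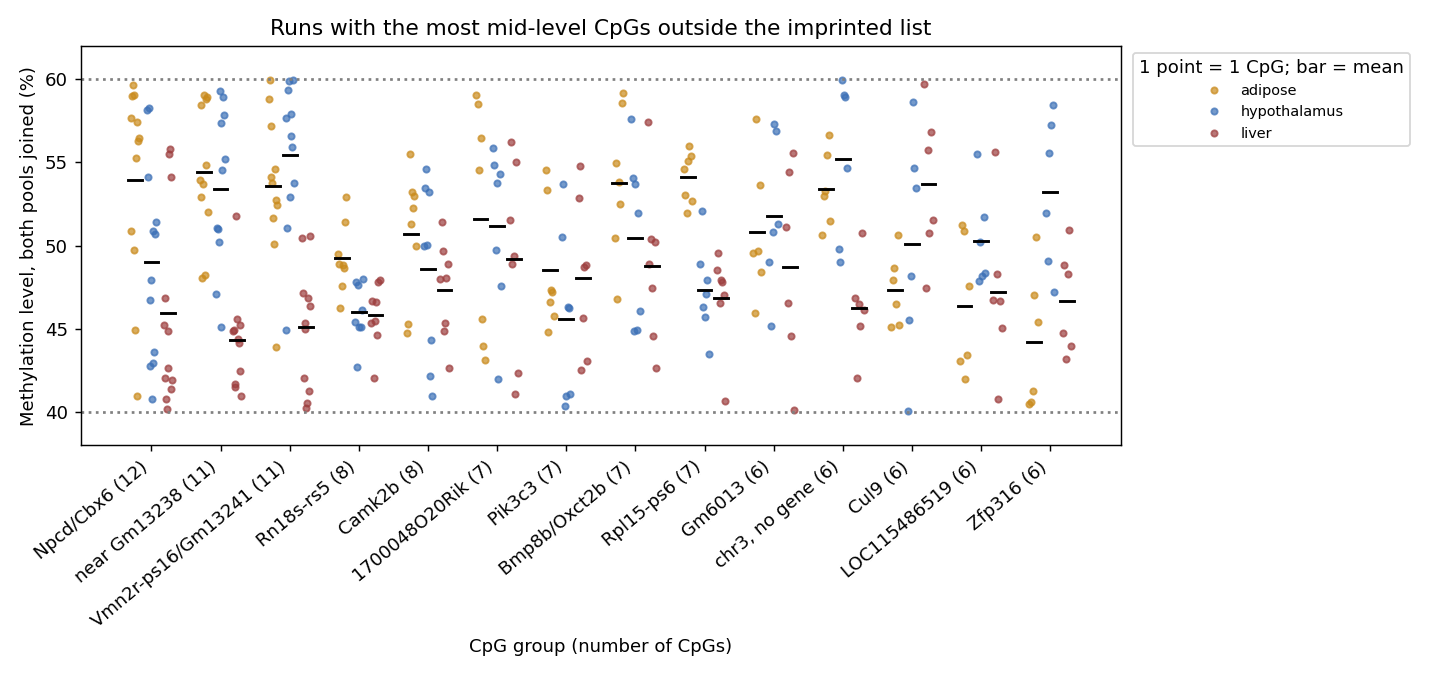
Methylation level in percent (both pools joined) of each mid-level CpG in 14 of the 15 runs with the most such CpGs outside the imprinted list, with the number of CpGs after each name. Each point is 1 CpG, bars are means over CpGs, colours are tissues and dotted lines are the limits of the rule. The mean of liver lies lowest at Npcd/Cbx6, near Gm13238 and at Vmn2r-ps16/Gm13241.

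The BPA and control pools of a tissue were compared by Fisher's exact test of their reads (two-sided), adjusted by the Benjamini-Hochberg procedure over all CpGs of the tissue's table with at least 10 reads in each pool. Called CpGs had an adjusted p under 0.05 and differed by 5 percentage points or more. In adipose 15 of the 782 CpGs (1.92%) were called, 5 higher and 10 lower in the BPA pool, against 0.535% of all CpGs tested (0.252% higher and 0.283% lower) and 1.53% of other CpGs at 40% to 60% in adipose. In liver 4 (0.512%) were called, 1 higher and 3 lower, against 0.0259% of all tested (0.0181% higher and 0.0078% lower) and 0.235% of the other CpGs at that level. In hypothalamus 1 (0.128%) was called, lower, against 0.00599% of all tested (0.00299% in either direction alone) and 0.00187% of the other CpGs at that level. Most differences were small: their median size was 4.6 points in adipose, 4.9 in hypothalamus and 4.4 in liver, against 4.7, 4.8 and 4.2 at the other CpGs of the same level.

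The tests measure counting error in pooled reads and not the spread between animals. The mean squared difference was 2.39 times what counting error gives in adipose, 1.46 times in hypothalamus and 1.83 times in liver. With p-values scaled by that excess over all CpGs of a tissue (1.91, 1.18 and 1.18), 0 CpGs were called in adipose, 1 in hypothalamus and 1 in liver. At an unadjusted p under 0.05 stood 154 CpGs in adipose (19.7%, against 10.1% of all tested), 64 in hypothalamus (8.18% against 3.41%) and 101 in liver (12.9% against 4.21%). At the other CpGs of 40% to 60% in the tissue these shares were 18.4%, 6.48% and 10.0%, nearer to those of the set than the shares of all tested CpGs.

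Among imprinted genes 3 of 74 CpGs were called in adipose (4.05%), and 0 in hypothalamus and liver. In adipose the share was 1.69% of the mid-level CpGs elsewhere, 1.53% of other CpGs at 40% to 60% and 0.535% of all tested. At Meg3, the CpG at position 109541075 of chromosome 12 was methylated in 31.2% of 157 control reads and 54.2% of 192 BPA reads, which is 23.0 points higher (interval 12.6 to 32.6, adjusted p of Fisher's exact test 0.0136). It read 41.3% and 44.7% in hypothalamus and 42.3% and 40.2% in liver. The 3 other mid-level Meg3 CpGs, of which 2 are printed above, read 43.7% and 47.6%, 40.5% and 41.8%, and 40.7% and 41.0% in the control and BPA pools of adipose. None of them was called. At Zrsr1, 1 of 10 CpGs fell from 51.7% of 362 reads to 37.5% of 411 (adjusted p of Fisher's exact test 0.0282). The 10 together averaged 49.3% and 46.0%.

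At Cdh15 the called CpG rose from 47.7% of 235 reads to 64.6% of 229 in adipose (adjusted p of Fisher's exact test 0.0483). There 4 of the 5 mid-level CpGs of its run were higher in the BPA pool. The control and BPA means of the 5 were 51.2% and 62.6% in adipose and 44.4% and 63.4% in hypothalamus. Liver had 48.4% and 47.3%. All 5 were higher in the BPA pool of hypothalamus, by 13.8 to 23.1 points, though none was called there. At Zdbf2 the BPA pool had the higher mean in adipose (48.7% and 59.7%) and liver (43.4% and 55.4%) and the lower one in hypothalamus (56.9% and 47.1%). Nap1l5 had 50.1% and 37.5% in hypothalamus and 59.6% and 45.9% in liver, from median depths of 39 to 56 reads, and 46.4% and 45.7% in adipose. No CpG of Zdbf2 or Nap1l5 was called.

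Both pools had nearly the same level at Mcts2 and in the largest Gnas run. Mcts2 had control and BPA means of 52.9% and 52.8% in adipose. Its hypothalamus pools read 41.1% and 41.0%, and its liver pools 42.3% and 42.0%. The large Gnas run of 12 CpGs had 51.3% and 53.2% in adipose, with hypothalamus at 48.5% and 47.9% and liver at 49.8% and 50.4%. The Gnas run of 9 CpGs differed more in adipose, with 56.3% and 46.5% and all 9 CpGs lower in the BPA pool, while hypothalamus had 40.7% and 45.9%. Snrpn was lower in the BPA pool of adipose (47.6% and 39.0%) and liver (44.2% and 40.3%) and higher in that of hypothalamus (38.7% and 46.2%). None of the CpGs of Mcts2, Gnas or Snrpn was called in any tissue.

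Outside imprinted genes, the adipose calls were spread over many loci. Tmprss11d, which encodes an airway serine protease, rose from 47.8% of 427 reads to 63.9% of 485 (adjusted p of Fisher's exact test 0.00225). Apc2, a relative of the tumour suppressor APC expressed in neurons, rose from 41.1% to 64.2%, and Tll2, which encodes a metalloprotease, rose from 43.5% to 58.1%. Lower in the BPA pool were Map3k6, a stress kinase gene (55.3% to 35.8%), Chpf2, which builds chondroitin chains (65.9% to 46.6%), and Septin5, which encodes a cytoskeletal GTPase (68.9% to 50%). Krt79, a keratin gene (50.7% to 33.8%), Gm6013 (58.8% to 42.7%) and Vmn2r-ps16 with Gm13241 (62.1% to 48.3%) were lower too. The remaining 3 calls, 2 on chromosome 4 and 1 on chromosome 5, had no gene within 5 kb and differed by -11.7, -16.9 and -18.2 points. At Map3k6, Chpf2, Septin5 and Krt79 every mid-level CpG of the run with the call was lower in the BPA pool. At Tmprss11d and Tll2 every one was higher. The direction of the call was shared by 3 of 4 at Apc2, 4 of 6 at Gm6013 and 6 of 11 at Vmn2r-ps16 with Gm13241. A second run without a call had 3 of 4 CpGs higher at Septin5 and 1 of 3 higher at Chpf2.

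The liver calls besides Rn18s-rs5 were at Map3k10, a kinase gene of the JNK pathway (64.8% of 145 reads to 37.4% of 131), Gm13231 (37.5% of 128 to 65.2% of 135) and Bod1-ps (67.3% of 55 to 25.9% of 58). The Bod1-ps difference of -41.4 points, with an interval from -55.9 to -23.2, rests on the fewest reads among the calls. At Gm13231, whose called CpG rose, the 2 other CpGs of the run were not higher.

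Rn18s-rs5 was the locus called in 2 tissues. Its CpG at position 39847391 of chromosome 17 fell in hypothalamus from 62.6% of 230 control reads to 39.0% of 387 BPA reads (adjusted p of Fisher's exact test 0.000133). In liver it fell from 62.1% of 422 to 41.1% of 462 (adjusted p of Fisher's exact test 8.14e-06), and in adipose 56.1% of 374 and 59.1% of 435, which was not called. All 13 mid-level CpGs in the gene body were lower in the BPA pool of hypothalamus and of liver and higher in that of adipose, with median differences of -17.5, -14.3 and 5.7 points. Another run, of 3 CpGs, lay within 5 kb, outside the gene body. All 3 were lower in the BPA pool of hypothalamus (46.0% and 41.4%) and liver (47.4% and 37.6%), and 1 of 3 was higher in that of adipose (46.2% and 47.1%).

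Rpl15-ps6 showed the widest mean difference in adipose among the 15 named runs. Its 7 CpGs averaged 62.3% in control and 45.5% in BPA, and all 7 were lower, with differences of -19.2 to -14.5 points. In liver the means were 51.1% and 43.0% with all 7 lower, and in hypothalamus 44.0% and 50.9% with all 7 higher. None of them was called. At Pik3c3 all 7 were higher in the BPA pool of adipose (44.9% and 52.5%) and hypothalamus (42.0% and 48.7%), while liver had 48.4% and 47.5%. At Camk2b and Bmp8b/Oxct2b the pool means differed by under 3 points in every tissue.

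By run, the mean difference reached 10 points in 15 of 209 runs in adipose, 14 in hypothalamus and 14 in liver. In adipose all CpGs of a run were higher in the BPA pool in 44 runs and all lower in 56, in hypothalamus in 41 and 46, and in liver in 28 and 50. These counts carry no test, because the CpGs of a run share reads.

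**Figure D5:**
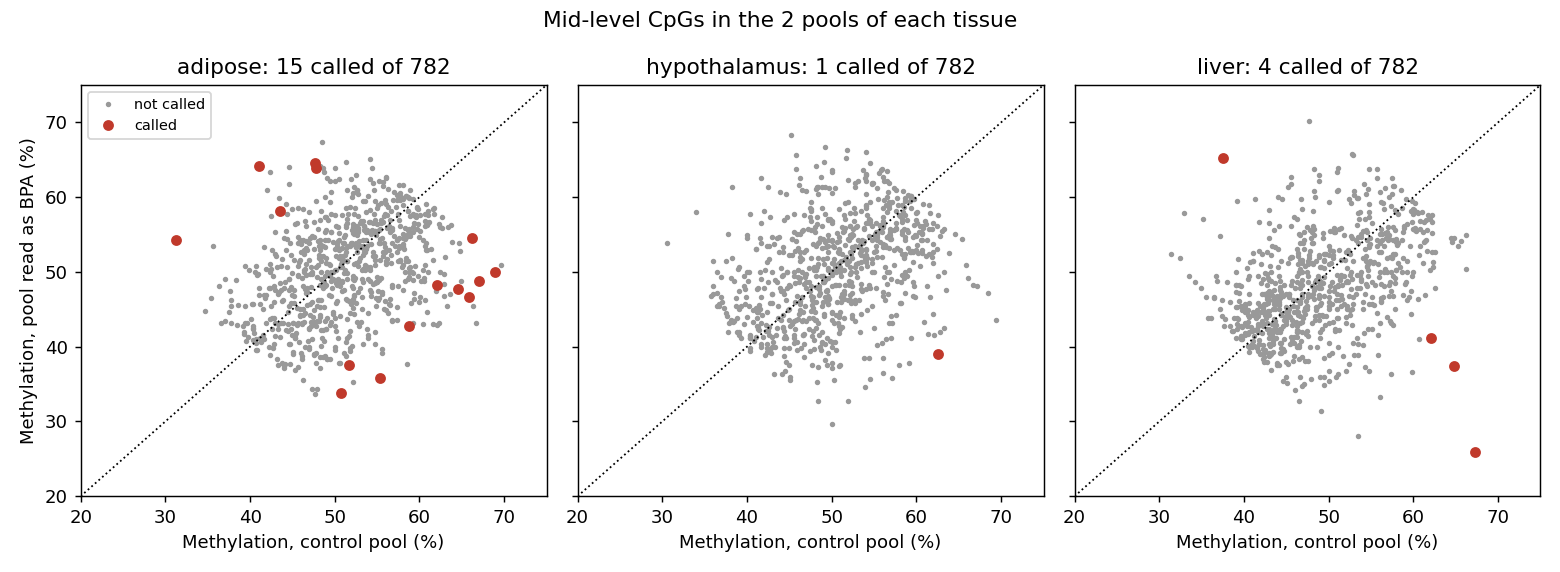
Methylation level in percent in the control pool (horizontal axis) and in the pool read as BPA (vertical axis) of each tissue, with 1 point per mid-level CpG, red where called, and a dotted line of equal levels. Most points lie near the line, with 15 called in adipose, 1 in hypothalamus and 4 in liver.

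For each pair of tissues, the log odds ratios of BPA against control were set against each other in a Wald test, adjusted over all CpGs tested in both tables. Between adipose and hypothalamus 1 of the 782 was called, against 0.0266% of all tested, between adipose and liver 3, against 0.0493%, and between hypothalamus and liver 0, against 0.00375%. At an unadjusted p under 0.05 stood 112, 128 and 71 of the 782 in the same order (14.3%, 16.4% and 9.08%), against 5.39%, 6.54% and 3.66% of all tested. The calls were the Rn18s-rs5 CpG above against both tissues, a CpG near Ankrd49 and a CpG in the pseudogene Gm6365. The CpG near Ankrd49, a gene of ankyrin repeats, read 44.6% in control and 64.0% in BPA of adipose, but 59.8% and 36.6% in liver (adjusted p of the Wald test 0.00633). The CpG in Gm6365 read 56.3% and 44.5% in adipose and 42.9% and 58.3% in liver (adjusted p of the Wald test 0.0475).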

How the data were processed

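Methylation was measured in 18 samples, 3 per treatment and tissue. Reads were aligned with BSMAP to GRCm38 (mm10), per the submitters' processing notes; its version and the treatment of duplicates are not given in the sources used here. The authors joined the 3 samples of a group into a pool before they deposited the tables. The deposited read counts give the reads over each CpG with both strands together. The deposited methylation fraction, rounded to 3 significant digits, is the methylated share of them. The deposited p-value comes from Fisher's exact test of the 2 pools, and recomputing it on 5000 CpGs a table gave the same value within 2% at 99.74% or more. The deposited score columns, a nominal and a credible difference and 1 more, were not used.

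A tissue level is the mean of both pools' fractions weighted by reads. CpGs were assigned to RefSeq genes (GRCm38.p6) in whose body or within 5 kb of which they lay, and exons and introns were not used. Differences are BPA minus control. Newcombe intervals for differences are 95% and cover counting error only, since PCR copies of a molecule cannot be told from separate molecules. The Wald test added 0.5 to each cell. Scripts, in Python 3.11.15 with pandas 2.3.3 and scipy 1.17.1, were tested on simulated data. Named were the imprinted domains with mid-level CpGs, the 15 longest other runs by number of CpGs, up to 10 called CpGs per tissue, and list genes with mid-level CpGs. Adipose had 15 calls, and the 5 past the tenth are given as well. These, Mcf2l, Ankrd49, Gm6365 and the imprinted domains without mid-level CpGs stand outside that rule and were chosen after their values were seen. The CpGs and gene lists were chosen with earlier results of these data known. Of 153 list entries 151 matched. Of the 15 runs, 1 is not reported here. Alternatives changed depth, level, neighbour and gene limits, the minimum difference and the p-values.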

Additional observations from a re-analysis of the deposited data

Results flagged for a closer look

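At 3 CpGs the difference between pools itself differed between tissues by the Wald test, adjusted over all CpGs tested in both tables. The Rn18s-rs5 CpG at position 39847391 of chromosome 17 differed by 3.0 points in adipose, against -23.6 in hypothalamus (adjusted p of the Wald test 0.00695) and -21.0 in liver (0.00472). The CpG near Ankrd49 at position 14778825 of chromosome 9 differed by 19.4 points in adipose and -23.2 in liver (adjusted p of the Wald test 0.00633). The CpG in Gm6365 at position 11878614 of chromosome 19 differed by -11.8 points in adipose and 15.4 in liver (adjusted p of the Wald test 0.0475). Neither of the latter 2 CpGs was called between pools within a tissue.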

How the results depend on the processing

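No paired analysis was possible because each group is deposited as 1 pool with no value per sample, and for the same reason no sample could be left out in turn. With p-values scaled by the excess over counting error, adipose had 0 calls and liver 1, while hypothalamus kept a count of 1. Without CpGs at Rn18s-rs5 and AY036118, an alternative chosen after seeing the data, hypothalamus had 0 calls and liver 3. Other limits on depth and size left 15, 1 and 4 calls, except that liver had 3 without the deepest 0.1% of CpGs. The Wald count of 4 was the same at 20 reads. The number of mid-level CpGs was 4081 at levels of 0.35 to 0.65, 20 at 0.45 to 0.55, 226 with 4 further CpGs and 6523 with no neighbours asked for. The share at imprinted genes was 5.76%, 20.0%, 16.8% and 1.47% in these settings, and 7.31% when the control pool alone set the level, which kept 413 of the 782 CpGs. With at least 50 reads there were 666 CpGs, within 100 bp 530, and from the control pool alone 643. The share stayed above 0.309%, that of all CpGs within the main depth limits, in these settings. Depth limits single values, since the shallowest pool of a mid-level CpG had 30 reads.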

Other observations

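Chromosome X was outside the rule, and these males carry a single X. Applied there, the same limits found 12 of 38397 CpGs, 0.0313% against 0.0674% on the autosomes. Near Rbm10, an RNA-binding protein gene, and Ndufb11, a subunit gene of respiratory complex I, 5 CpGs read 45.3% to 48.7% in adipose, 41.2% to 47.0% in hypothalamus and 43.9% to 48.0% in liver. A further 4 lay at LOC115489104 and 3 had no gene within 5 kb.

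At Pigk, which encodes an enzyme of GPI anchor attachment and was chosen after its values were seen, a run of 3 CpGs averaged 62.3% in the control pool of adipose and 44.7% in its BPA pool. Hypothalamus had 50.8% and 62.1%, and liver 48.0% and 37.2%. The adipose difference, -17.7 points, was the widest run mean in that tissue, and none of the 3 CpGs was called. It rests on few reads. Median control and BPA depths at Pigk were 51 and 44 in adipose, against 226 and 258 for the whole set. They were 48 and 32 in hypothalamus and 51 and 39 in liver.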
